A study of Mus musculus with 6 samples.

Results

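The immediate early response genes Ier2, Ier3 and Ier5 were followed in RAW 264.7 cells, a mouse macrophage line derived from a virus-induced tumour. The 3 members were taken as every probe whose annotation gave one of these symbols. Each gene had 1 probe, so they made up 3 of the 16281 probes and 3 of the 10698 genes with an annotated probe. Cells were exposed for 1 h to lipopolysaccharide (LPS, 100 ng/ml), the bacterial outer membrane component sensed by Toll-like receptor 4. It was given together with LPS-binding protein (LBP, 100 pM), which helps that receptor sense LPS. The exposed cells were compared with untreated cells kept in culture for 1 h. Total RNA of both kinds was hybridised to each of 6 two-colour arrays, of which 3 carried the LPS and LBP RNA in Cy5 (here the Cy5 arrays) and 3 carried it in Cy3 (the Cy3 arrays). Both RNAs came from the same line, and the labels name it RAW 264.4 in places. All values are log2 ratios of treated over untreated RNA, so that 1 stands for a 2-fold difference and 0 for none. Ratios show how far a transcript differed, not how abundant it was, and whether macrophage markers were expressed could not be read from them.

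Immediate early genes are transcribed within minutes of a stimulus from factors already present in the cell, without new protein synthesis. Their promoters commonly answer to serum response factor (SRF) and its ERK-driven partners, or, in macrophages exposed to LPS, to NF-kappaB. Despite the common name, the 3 genes do not form one protein family. Ier2 (also called Pip92) and Ier5 encode related nuclear proteins that can bind the phosphatase PP2A, and Ier5 is known for activating the heat shock factor HSF1. Ier3 (gly96 or IEX-1) encodes an unrelated, short-lived protein that is phosphorylated by ERK and influences cell survival and NF-kappaB signalling.

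The bases just upstream of the annotated starts are shown for Ier3 and Ier5 because both genes rose, though by different amounts, and such windows can hold the motifs of SRF and NF-kappaB. Of the 3 genes, 2 matched the RefSeq promoter table (GRCm38.p6). The Ier3 window lies on the plus strand at chr17:35821463-35821712 and the Ier5 window on the minus strand at chr1:155099637-155099886, each 250 bases long and written 5′ to 3′ along the gene. Capitals mark a kappaB motif in Ier3 and the TATAA match in each window.
Ier3: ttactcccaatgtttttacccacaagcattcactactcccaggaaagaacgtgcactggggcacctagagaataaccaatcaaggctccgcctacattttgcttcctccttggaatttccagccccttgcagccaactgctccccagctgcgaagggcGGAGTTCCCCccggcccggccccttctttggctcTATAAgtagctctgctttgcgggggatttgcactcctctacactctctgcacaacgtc
Ier5: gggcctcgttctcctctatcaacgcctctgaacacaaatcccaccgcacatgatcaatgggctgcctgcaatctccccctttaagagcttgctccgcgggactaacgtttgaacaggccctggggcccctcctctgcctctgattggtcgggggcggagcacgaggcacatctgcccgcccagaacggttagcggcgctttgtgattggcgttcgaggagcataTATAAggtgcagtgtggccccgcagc

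Both strands of these windows were searched for 10 motifs, and the same search was made in all 32851 promoter windows of that length. The kappaB motif matched once in Ier3, on the antisense strand 92 to 83 bases before the start, and it was found in 3.90% of all windows. It overlaps a match to the SP1 motif GGGCGG at 96 to 91 bases before the start. The SP1 motif matched once in Ier3 and 2 times in Ier5, and 32.7% of all windows hold it. TATAA, present in 22.8% of windows, matched 58 to 54 bases before the start in Ier3 and 26 to 22 bases before it in Ier5. The ETS core GGAA matched 5 times in Ier3, once of them inside the kappaB match, and 0 times in Ier5, against 93.4% of all windows with at least 1 match. The CArG box of SRF, the cAMP response element TGACGTCA and its part TGACG, the AP-1 motif TGANTCA, the EGR motif GCGNGGGCG and the heat shock motif GAANNTTC had 0 matches in either window. Those 6 were found in 1.47%, 1.55%, 17.8%, 6.75%, 4.70% and 6.69% of all windows, in that order. A match is a run of letters and does not show that a factor binds there, and the lack of one says only that these letters are not in the window.

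Before the ratios could be read, their direction had to be set. The arrays of opposite dye orientation correlated negatively as deposited (r between -0.63 and -0.15 over 11442 probes), and arrays of one orientation correlated positively (0.60 to 0.81). The ratios had thus been left as scanned, and the sign of each Cy3 array was reversed. That Cy5 is the numerator is likely, since the labels name the Cy5 sample as the test on every array, but it is not stated, and every sign below would turn if it were Cy3. Between 8.99% and 23.9% of the ratios on an array were exactly 0 and were taken as not measured, while all 3 IER probes had a ratio on all 6 arrays. The array medians of the measured ratios, with their signs as deposited, lay between 0.0043 and 0.0159. The tests used the averages of same-numbered arrays from each orientation (sets 1 to 3, n = 3), and a gene was called at a Benjamini-Hochberg adjusted p under 0.05 over 8331 genes in limma. Whether the sets were grown separately is not said in the labels. The spread behind each p-value may thus be a technical one.

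Ier2, Ier3 and Ier5 all rose after 1 h of LPS and LBP. Ier2 rose to 3.97 times its untreated level, Ier3 to 3.43 times and Ier5 to 1.68 times. Each was above 0 on 6 of 6 arrays, as were 10.0% of all genes tested, and all 3 passed the test upward, as did 6.96% of all genes. With 1 probe each, a fit over probes used the same ratios and is no further evidence. It called all 3 (limma, adjusted p = 2.37e-05 for Ier2, 6.08e-05 for Ier3 and 0.000294 for Ier5), where 6.85% of probes were called higher and 5.63% lower.

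Ier2 rose most of the 3. On the Cy5 arrays its log2 ratio was 1.85, 2.14 and 2.07 in sets 1, 2 and 3. On the Cy3 arrays it was 1.80, 2.08 and 2.00. The orientations overlapped, and set 1 was the lowest in each. The mean was 1.99 ± 0.15 (SD over 3 sets, limma 95% interval 1.84 to 2.14, adjusted p = 1.46e-05), which is 3.97-fold with an interval from 3.57-fold to 4.42-fold. Ier2 stood at rank 23 of 8331 genes by mean ratio. The SD of its 6 ratios, 0.14, was close to the median SD of 0.15 over all genes.

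Ier3 followed closely. Its log2 ratio was 1.65, 2.05 and 1.96 on the Cy5 arrays, for sets 1, 2 and 3. On the Cy3 arrays it was 1.49, 1.83 and 1.69. Set 1 was again the lowest in each orientation and set 2 the highest, and each Cy5 ratio lay above the Cy3 ratio of the same set. The mean was 1.78 ± 0.19 (SD over 3 sets, limma 95% interval 1.60 to 1.96, adjusted p = 4.71e-05), or 3.43-fold with an interval from 3.02-fold to 3.89-fold. This placed Ier3 at rank 31 of 8331. The 6 ratios of Ier3 had an SD of 0.21, and 72.7% of genes had an SD at or below that.

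Ier5 rose less. On the Cy5 arrays its log2 ratio was 0.64, 0.39 and 0.71 in sets 1, 2 and 3, and on the Cy3 arrays it was 0.95, 0.94 and 0.88. All ratios of the Cy3 arrays lay above all those of the Cy5 arrays, a pattern that 18.2% of genes showed, while 17.6% showed the opposite one. The mean was 0.75 ± 0.07 (SD over 3 sets, limma 95% interval 0.64 to 0.86, adjusted p = 0.000225), which is 1.68-fold with an interval from 1.56-fold to 1.82-fold. That small SD belongs to averages in which the orientations are mixed, and the SD of the 6 single ratios was 0.22. Ier5 stood at rank 106 of 8331 genes, and 81 genes were called with a rise of 2-fold or more.

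**Figure D1:**
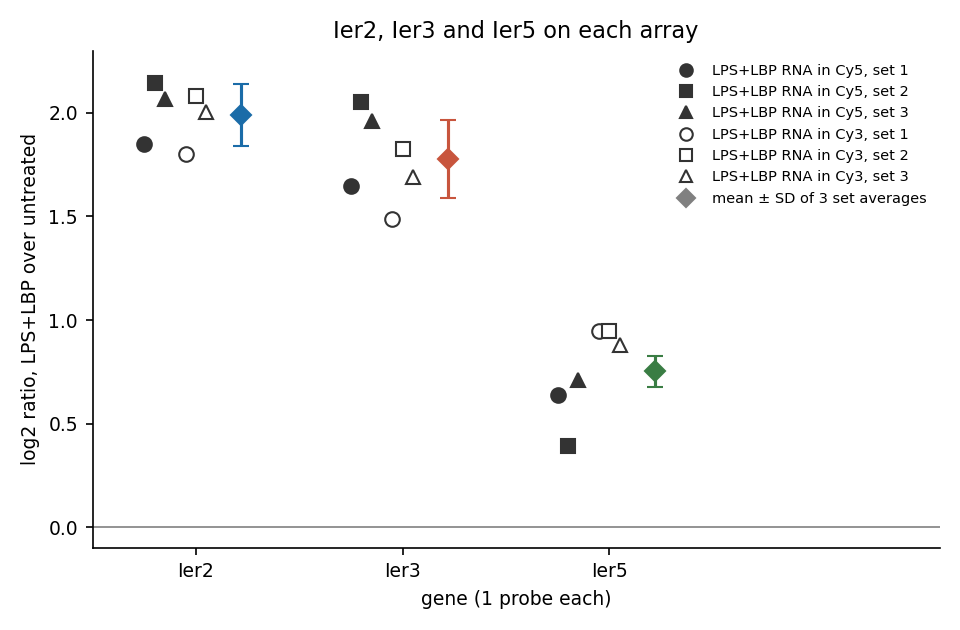
Log2 ratio of LPS and LBP treated over untreated RNA (vertical axis) for Ier2, Ier3 and Ier5 on each of the 6 arrays, filled for the Cy5 arrays and open for the Cy3 arrays, with the set shown by the symbol. Diamonds with bars are the mean ± SD of the 3 set averages, at 1.99, 1.78 and 0.75, and every point lies above 0.

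**Figure D2:**
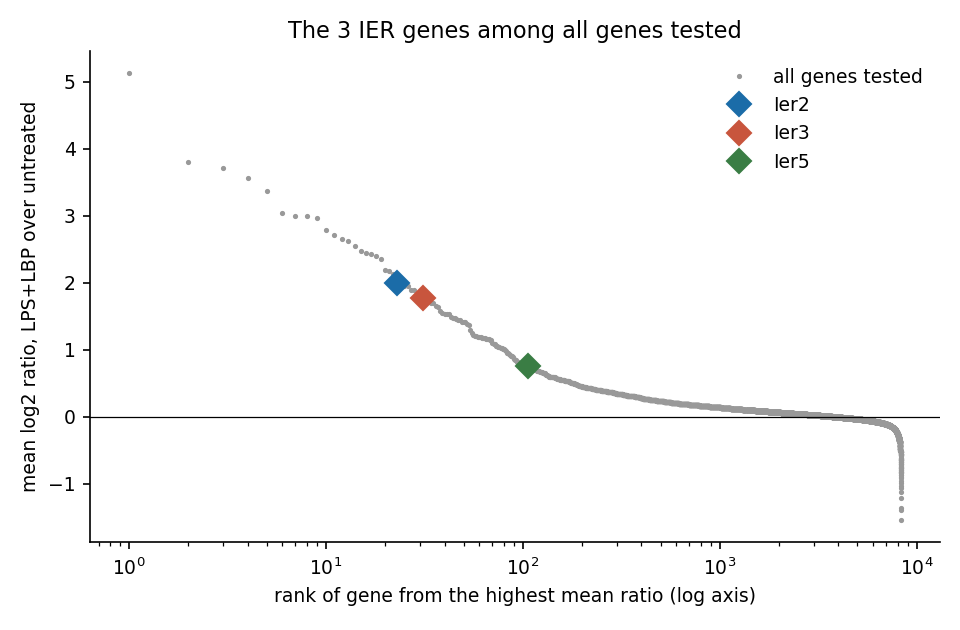
Mean log2 ratio (vertical axis) of the 8331 genes tested against their rank from the highest (horizontal log axis). Ier2 at rank 23 and Ier3 at rank 31 lie close together on the steep part of the curve, and Ier5 at rank 106 lies where it flattens.

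A dye effect was estimated for each gene. Averaged without turning, a ratio measures how much brighter a probe is in Cy5 whichever RNA it carries, and this was 0.03 for Ier2 (limma, adjusted p = 0.519), 0.11 for Ier3 (95% interval 0.02 to 0.19, adjusted p = 0.138) and -0.17 for Ier5 (95% interval -0.31 to -0.04, adjusted p = 0.139). None of these passed, though for Ier3 and Ier5 the unadjusted p was 0.0224 and 0.023. Over all 11442 probes 6 (0.0524%) were called for such an effect, and 27.8% were below 0.05 unadjusted. The rise of Ier5 was 0.58 (limma 95% interval 0.38 to 0.78, adjusted p = 0.0145) on the Cy5 arrays and 0.92 (0.78 to 1.06, adjusted p = 0.00141) on the Cy3 arrays. It was thus called in each orientation, at 1.49-fold and 1.90-fold.

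Ier2 and Ier3 shared an order of the sets. In both genes and both orientations set 1 was lowest, set 3 intermediate and set 2 highest, an order shown by 3.00% of all genes and by 16.5% of the 79 other genes called with a rise of 2-fold or more. Set 1 was lowest in both orientations for 9.72% of all genes and for 32.9% of those 79. The median log2 ratio of those 79 in sets 1, 2 and 3 was 1.52, 1.66 and 1.51 on Cy5 arrays, with 1.49, 1.50 and 1.45 on Cy3 arrays. In Ier5 set 2 was lowest in one orientation and set 3 in the other. The part of the arrays in this shared order was not tested.

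The 3 genes were then set against each other within arrays. Ier2 was above Ier3 on 6 of 6 arrays, by 0.20, 0.09 and 0.11 on the Cy5 arrays and by 0.31, 0.25 and 0.31 on the Cy3 arrays. The mean difference was 0.21, or 1.16-fold, with an SD of 0.04 over sets. Ier2 exceeded Ier5 by between 0.85 and 1.75, with a mean of 1.24 (SD over sets 0.21). Ier3 exceeded Ier5 by between 0.54 and 1.66, with a mean of 1.03 (SD over sets 0.25). In a two-sided exact sign-flip permutation test over the 6 arrays each of the 3 pairs gave p = 0.03125, the smallest that 6 arrays allow, and the same value when adjusted over the 3 pairs. That test takes the arrays as independent. The values compared come from different probes. The separate 95% intervals of Ier2 and Ier3 overlapped, while that of Ier5 lay apart from both.

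**Figure D3:**
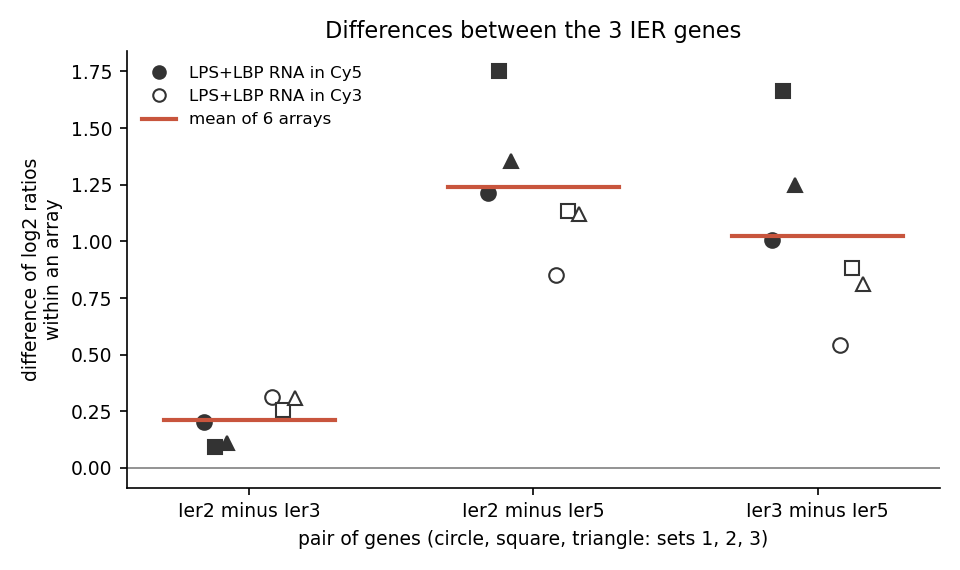
Difference of log2 ratios within an array (vertical axis) for each pair of the 3 genes, filled for the Cy5 arrays and open for the Cy3 arrays, with a bar at the mean of the 6 arrays. All points lie above 0, and the differences from Ier5, at means of 1.24 and 1.03, are wider and more scattered than the 0.21 between Ier2 and Ier3.

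The genes that responded most like each member were those with the smallest root-mean-square difference from it over the 6 arrays, among all 8331 genes. For Ier2 they were Tnfsf9, a costimulatory ligand of the TNF family (difference 0.12, mean log2 ratio 1.95 ± 0.14), Cflar, an inhibitor of caspase activation (0.20, mean 1.95 ± 0.34), Il10, an anti-inflammatory cytokine (0.20, mean 1.82 ± 0.06), and Zfp36, which destabilises cytokine mRNAs (0.21, mean 2.14 ± 0.13). Ier3 itself came at place 7 for Ier2, with a difference of 0.23.

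For Ier3 the closest was Tnfaip3, the ubiquitin editor that restrains NF-kappaB (difference 0.12, mean log2 ratio 1.70 ± 0.28). Tnfaip3 read 1.52, 2.15 and 1.93 on the Cy5 arrays and 1.30, 1.79 and 1.53 on the Cy3 arrays, with the same order of sets as Ier3. Next came Ppp1r15a, a stress-induced phosphatase subunit (0.17, mean 1.65 ± 0.11), Il10 (0.20) and Marcksl1, a regulator of the actin skeleton (0.22, mean 1.69 ± 0.17). Ier2 followed at place 5.

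Ier5 had other neighbours. They were Rgs1, a regulator of G-protein signalling (difference 0.10, mean log2 ratio 0.72 ± 0.13), Dnajb9, an endoplasmic reticulum co-chaperone (0.11, mean 0.82 ± 0.13), Bcl2a1c, a survival gene (0.16, mean 0.68 ± 0.14), and Tlr2, the receptor for bacterial lipopeptides (0.16, mean 0.65 ± 0.02). Bcl2a1c has near-identical copies in the mouse, which its probe may not tell apart. Rgs1 read 0.78, 0.33 and 0.60 on the Cy5 arrays and 0.97, 0.91 and 0.74 on the Cy3 arrays. Like Ier5 it was lowest in set 2 of the Cy5 arrays, and so were Dnajb9 (0.49), Bcl2a1c (0.41) and Tlr2 (0.54). All of the neighbours named for the 3 genes were called upward in limma (adjusted p between 6.9e-06 and 0.0011). Since they were chosen for closeness to genes that rose, over these same ratios, the calls follow from the choice. That choice also favours genes with a like order of sets, so the likeness of Tnfaip3 to Ier3 and of Rgs1 to Ier5 is no further evidence.

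Of the 2 other genes with an IER name on the array 1 could be tested. It was not called higher, where 6.96% of all genes were, so this says little. Ier3ip1, an endoplasmic reticulum protein first found as a partner of Ier3, averaged -0.14 ± 0.04 and did not pass (limma, adjusted p = 0.0881), though it lay below 0 on all 6 arrays, as did 9.11% of genes, and was called lower when the 6 arrays were fitted with a dye term. Ier5l, the closest relative of Ier5, had ratios on 3 arrays, of 0.14 on a Cy5 array and of -0.27 and -0.22 on Cy3 arrays, and was not tested.

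Among the SRF target immediate early genes, of which 19 were listed, 16 had a probe and 13 were complete, 9 of 13 tested rose and 1 fell, where 6.96% of all genes rose and 6.21% fell. Their median log2 ratio was 1.54, against -0.01 over all genes. Egr1 rose by 5.13 ± 0.16 and Egr2 by 3.79 ± 0.25, both zinc finger transcription factors, and Phlda1 rose by 3.37 ± 0.19, the growth inhibitor Btg2 by 3.04 ± 0.20, Zfp36 by 2.14 ± 0.13 and the phosphatase gene Dusp1 by 1.82 ± 0.23. Ier2 thus lay below 5 and above 8 of the 13, Ier3 below 6 and above 7, and Ier5 below 8 and above 5. The 1 that fell, named after its value was seen, was Fos, the AP-1 subunit, by 0.25 ± 0.04, and its call was lost without set 1 and on the Cy3 arrays alone. Not called were Egr4 (-0.02), Nr4a1 (0.11) and the matrix protein gene Ccn2 (0.03), also named after their values were seen. With incomplete probes included 10 of 15 were called higher. The added genes, again named after their values were seen, were Arc and Ccn1. Arc was called at 2.05 (limma, adjusted p = 3.33e-05), and Ccn1 was not called (-0.01, adjusted p = 0.934).

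The NF-kappaB target early genes, of which 19 were listed and 17 had a probe, rose in 13 of 13 tested, where 6.96% of all genes did. Their median log2 ratio was 1.70, with a range from 0.53 to 3.72. With incomplete probes included 14 of 15 were called higher. The added genes, named after their values were seen, were Nfkbib and Cxcl1. Nfkbib was called at 0.39 from ratios of opposite sign, -1.55 and -1.87 on Cy5 arrays and 2.39 and 2.58 on Cy3 arrays. Cxcl1 was not called (0.004, limma, adjusted p = 0.979). The atypical inhibitor gene Nfkbiz rose by 3.72 ± 0.17 over probes at 2.87 and 4.57, the activation marker gene Cd83 by 3.56 ± 0.08, the adaptor gene Traf1 by 2.72 ± 0.23, Tnf by 2.44 ± 0.19, the chemokine gene Ccl4 by 2.40 ± 0.13 and Birc3, an inhibitor of cell death, by 1.71 ± 0.07. Ier2 and Ier3 each lay below 5 of these 13 and above 8, and Ier5 lay below 10 and above 3. The lists were chosen with earlier results of these data known, so their counts are a setting for the members and not independent evidence.

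**Figure D4:**
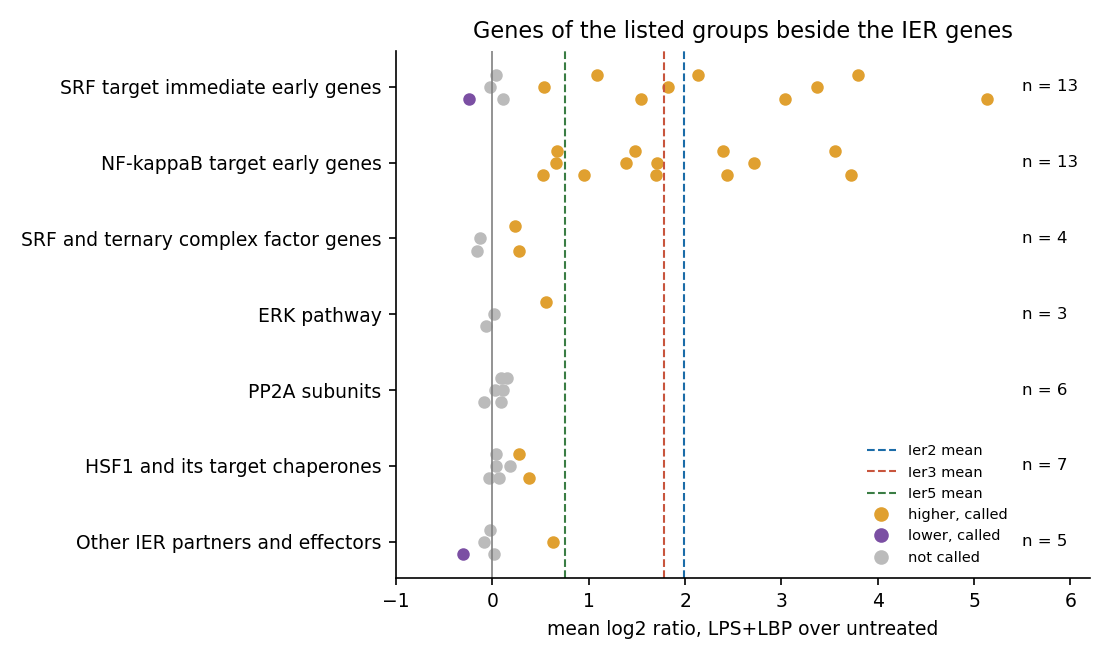
Mean log2 ratio (horizontal axis) of each tested gene in 7 lists, coloured by its call, with dashed lines at the means of Ier2, Ier3 and Ier5. Both lists of target genes spread across and beyond the members' lines, while the genes of the other 5 lists lie between -0.31 and 0.63, all below the Ier5 line.

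Tested genes for SRF and its partners, the ERK pathway, PP2A, HSF1 target chaperones and other IER partners had means between -0.31 and 0.63. All lay below the mean of Ier5. Their counts stand against the 6.96% of all genes called higher and the 6.21% called lower. Of 4 tested genes for SRF and its ternary complex partners 2 rose, named after their values were seen, Srf by 0.28 ± 0.06 and Elk4 by 0.24 ± 0.10, and without set 1 neither was called (adjusted p = 0.0622 and 0.124). Srf averaged 0.43 on the Cy5 arrays alone, where it was called, and 0.12 on the Cy3 arrays alone, where it was not (adjusted p = 0.289), nor was it called with the set number as a replicate block (adjusted p = 0.109). Elk4 was called on neither the Cy5 arrays (adjusted p = 0.0927) nor the Cy3 arrays alone (adjusted p = 0.0773), and not without set 3 (adjusted p = 0.0843). Both calls were also lost with zeros kept as ratios. In the ERK pathway, which phosphorylates IER3, Map3k8, the kinase that links Toll-like receptors to ERK, rose by 0.56 ± 0.20 (adjusted p = 0.0821 with zeros kept as ratios), whereas Map2k1 (0.02 ± 0.05) and Map2k2 (-0.07 ± 0.04) did not pass. Of 6 PP2A subunit genes tested, 0 were called in either direction in limma, 1 had an unadjusted p under 0.05, and their means lay between -0.08 and 0.15. None of the 6 was called under any of the 14 alternatives, all of them limma fits. With 13.2% of all genes called in either direction, 0 of 6 is near the background. Of 7 tested genes of HSF1 target chaperones 2 rose, Dnajb1, a co-chaperone, by 0.38 ± 0.06 and, named after its value was seen, Bag3, another co-chaperone, by 0.27 ± 0.10, which was not called without set 1 (adjusted p = 0.113) or without set 3 (adjusted p = 0.0584), nor on the Cy3 arrays alone (adjusted p = 0.0798) or with zeros kept as ratios (adjusted p = 0.0946). Dnajb1 was not called on the Cy3 arrays alone (0.21, adjusted p = 0.128) nor with the set number as a replicate block (adjusted p = 0.0552). Not called were Hspa1a (-0.04), Hspa1b (0.03), Hsph1 (0.04), Dnaja1 (0.06) and Hspb1 (0.19), named after their values were seen. The ratios of Hspb1 ran from -1.59 on a Cy5 array to 2.12 on a Cy3 array. Those of Hspa1b ran from -0.99 to 1.07 in the same way, so the means of both say little. With incomplete probes included 3 of 8 genes of this list were called higher. The added gene, named after its value was seen, was the chaperone gene Hspa8, at 0.34 (limma, adjusted p = 0.0243). Among other partners, Rela, the NF-kappaB subunit that IER3 can bind, rose by 0.63 ± 0.21, and Cdc25b, the cell cycle phosphatase linked to IER5, fell by 0.31 ± 0.09. The probes of Cdc25b averaged -0.45 and -0.17, and its call was lost without set 1 (-0.34) and on the Cy5 arrays alone (-0.27). Rela was not called on the Cy3 arrays alone (0.50, adjusted p = 0.0568), and neither Rela nor Cdc25b was called with zeros kept as ratios.

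Of 7 macrophage marker genes 1 rose, the surface receptor gene Adgre1, by 0.55 ± 0.11, and 0 fell, a share near the 13.2% of all genes called in either direction, while Cd68, Csf1r, Lyz2, Spi1, Fcgr1 and Cd14 lay between -0.11 and 0.19. Of 3 tested markers of lymphocytes (Cd3e, Cd79a) or epithelium (Epcam) 1 rose, where 6.96% of all genes did. It was the B cell receptor gene Cd79a, by 0.20 ± 0.06, named after its value was seen. Its call was lost in each fit that left out a set and in each orientation alone. The call was also lost with zeros kept as ratios, with the set number as a replicate block and with the 6 arrays fitted separately. The fibroblast markers Col1a1 and Col1a2 and the epithelial markers Krt8 and Krt18 lacked a ratio on some of the arrays and were not tested. Ratios of these markers cannot show how many such cells were present.

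**Figure D5:**
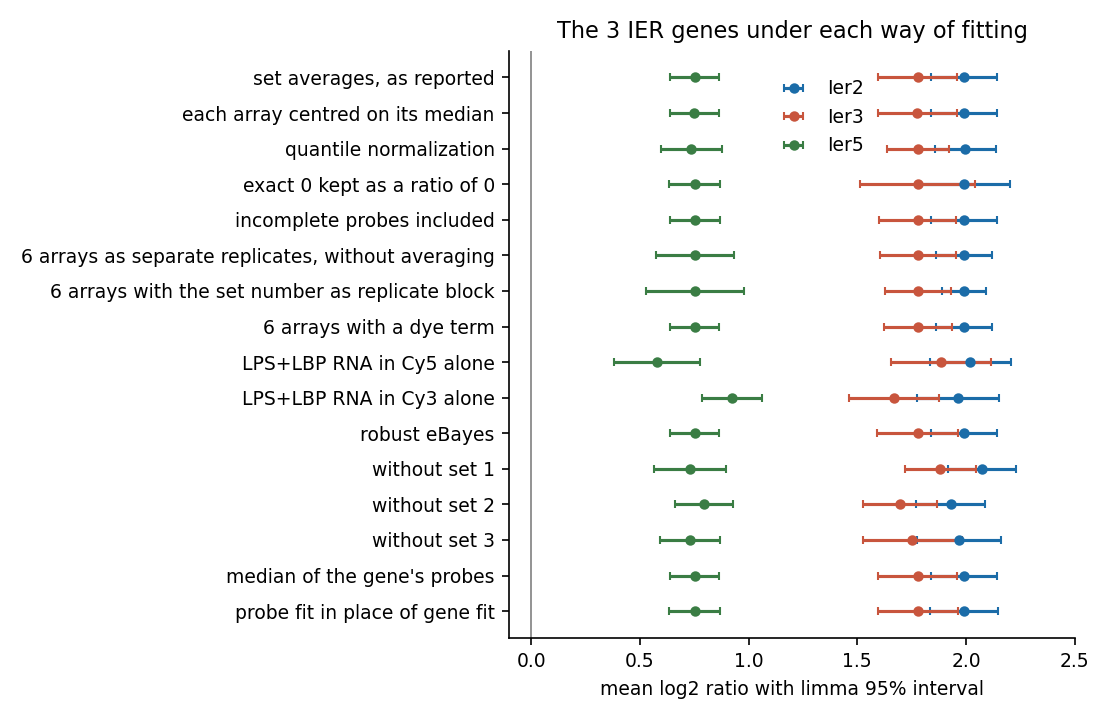
Mean log2 ratio with its limma 95% interval (horizontal axis) for Ier2, Ier3 and Ier5 under each way of fitting listed on the vertical axis. Ier2 and Ier3 stay between 1.67 and 2.07, and Ier5 ranges from 0.58 on the Cy5 arrays alone to 0.92 on the Cy3 arrays alone.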

How the data were processed

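The deposited values, made by the authors, are log2 ratios of the 2 channels, 1 per probe and array. Their base was read from the values, since on each array 99.6% to 99.8% of the non-zero ones, multiplied by log10 of 2, come back to 6 digits (relative tolerance 1e-13). Scanner, background correction, normalization and how arrays were centred are not given in the sources used here, and no intensities were used, so that the number of arrays alone describes the precision. Of the probes, 13738 carried 1 gene symbol in GEO's platform annotation, 52 carried several and 2491 carried none. Exact 0 was treated as missing, and the 9968 probes with 1 symbol and no missing array were averaged to 8331 genes. Set averages were tested against 0 with limma 3.58.1 in R 4.3.3 (lmFit, eBayes, two-sided). With orientation means removed, same-numbered arrays correlated at 0.0056, -0.258 and -0.0636. Over all 11442 complete probes these correlations thus gave no sign that the numbers pair the arrays. Among the 79 other genes called with a rise of 2-fold or more, 16.5% had the sets ordered 1, 3, 2 in both orientations. Of all genes 3.00% did, and whether the numbers pair the arrays for such genes was not tested. Averaging by number serves to balance the dyes, while the SDs and p-values of the set averages rest on it. Fitting the 6 arrays separately called 1057 genes, the members among them (limma, adjusted p = 1.93e-07, 2.17e-06 and 0.000427 for Ier2, Ier3 and Ier5). Alternatives covered centring, quantile normalization, zeros, incomplete probes, error models, single orientations and left-out sets. Named were the members, the 4 genes nearest to each, and up to 6 called genes per list with an absolute ratio of at least 0.3. The members and lists were chosen with earlier results of these data known.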

Additional observations from a re-analysis of the deposited data

How the results depend on the processing

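Ier2, Ier3 and Ier5 kept their direction under all 16 alternatives each and their call under the 15 that were limma fits, over array centring, quantile normalization, zeros kept as ratios, incomplete probes, other error models, each orientation alone and each set left out. With 1 complete probe each, their means moved only under centring, quantile normalization, single orientations and left-out sets. The other alternatives kept the same mean and could change only its interval and p-value. The exact sign-flip test over 6 arrays gave p = 0.03125 for each, the smallest it allows, which 1592 of 8331 genes share, and adjusted over all genes this is 0.164, so that test could call 0 genes. The mean log2 ratio ranged from 1.93 to 2.07 for Ier2, from 1.67 to 1.89 for Ier3 and from 0.58 to 0.92 for Ier5, and the highest adjusted p in limma was 0.00995, 0.0166 and 0.0175, with zeros kept as ratios. Leaving out a set gave 1.93 to 2.07, 1.70 to 1.88 and 0.73 to 0.79. With the set number as a replicate block the adjusted p was 2.93e-05 for Ier2, 8.56e-05 for Ier3 and 0.00726 for Ier5, at means of 1.99, 1.78 and 0.75, and this block changed no call of a member. It took the count of genes called to 790, against 1097 with set averages. With fewer arrays the exact test of the differences between members cannot pass its threshold. On the Cy5 arrays alone and on the Cy3 arrays alone they were 0.13 and 0.29 for Ier2 minus Ier3, 1.44 and 1.04 for Ier2 minus Ier5, and 1.31 and 0.75 for Ier3 minus Ier5 (exact p = 0.25 each, the smallest possible). Without one set they ranged from 0.19 to 0.23, from 1.14 to 1.34 and from 0.90 to 1.15 (exact p = 0.125 each, the smallest possible). A replicate block, a dye term and missing-value rules have no counterpart in that exact test and were not run for it. The 1097 genes called became 522 with zeros kept as ratios and 649 on the Cy3 arrays alone, became 1439 with 6 arrays and a dye term, and ranged from 499 (without set 1) to 832 when a set was left out. The 1428 probes called became 522 with zeros kept as ratios and 837 on the Cy3 arrays alone and 1859 with a dye term, and ranged from 621 to 1245 when a set was left out. Fits without a set have fewer residual degrees of freedom. Why set 1 weighs more than the others was not tested.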
